A study of Mus musculus with 12 samples.

Results

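Liver expression of 10 genes that build and remodel plasma lipoproteins was followed across genotype and a cholesterol diet in mice: Apob, Mttp, Apoa1, Apoc3, Apoa4, Apoa5, Apoe, Apof, Apom and Lcat. Each gene was read from the probe set that the platform's annotation gives to that symbol alone. All 10 were measured, each by 1 probe set, among 22180 genes in all. The samples were livers of male mice, 1 expression array per sample, with 3 biological replicates in each of 4 groups. The groups were Lats2-CKO mice on the high-cholesterol diet, Lats2-CKO mice on normal diet, wild-type mice on the high-cholesterol diet and wild-type mice on normal diet. Per the labels the mice were 8 weeks old, the diets lasted 9 weeks, the high-cholesterol (Paigen) diet held 1.25% cholesterol and the normal chow held none. The stated age is shorter than the diet period, so the time point it refers to is not clear. Diets of the Paigen type commonly also contain cholic acid, which the labels do not mention here. The labels call the line both Lats2-CKO and Lats2-KO and give neither the deleted part of the gene nor the cells in which it is lost. They do not say whether each replicate was 1 animal, so p-values measure only the spread between these samples.

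Very-low-density lipoprotein is assembled in the hepatocyte when the microsomal triglyceride transfer protein, encoded by Mttp, loads lipid onto nascent apolipoprotein B. Smaller apolipoproteins exchange between this particle and high-density lipoprotein, where they steer lipolysis, receptor uptake and the esterification of cholesterol. The liver is the main source of most of these proteins, and in mice the small intestine also makes several of them, among them apolipoproteins B, A-I and A-IV.

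Apoa1, Apoc3, Apoa4 and Apoa5 lie together within 43292 bases of mouse chromosome 9 (chr9:46228630-46271921, GRCm38.p6). The other members lie apart, Apob on chromosome 12 (chr12:7977629-8016839), Mttp on chromosome 3 (chr3:138089855-138143418), Apoe on chromosome 7 (chr7:19696244-19701310), Apof on chromosome 10 (chr10:128268699-128271250), Apom on chromosome 17 (chr17:35128997-35131801) and Lcat on chromosome 8 (chr8:105939551-105943402). The 250 bases before the RefSeq start site of 3 of the clustered genes are shown because their diet changes differed in size, and those of Mttp because its change came next to that of Apoa4 in its p-value. All are from GRCm38.p6, 5′ to 3′ in the direction of transcription, at chr9:46240594-46240843 (plus strand) for Apoa4, chr9:46228380-46228629 (plus strand) for Apoa1, chr9:46268358-46268607 (plus strand) for Apoa5 and chr3:138143419-138143668 (minus strand) for Mttp. Capitals mark motif matches.
Apoa4: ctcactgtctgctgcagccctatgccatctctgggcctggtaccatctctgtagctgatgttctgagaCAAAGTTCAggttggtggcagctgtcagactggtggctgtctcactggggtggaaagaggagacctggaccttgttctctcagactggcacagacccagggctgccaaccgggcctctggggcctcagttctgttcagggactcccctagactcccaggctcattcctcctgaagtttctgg
Apoa1: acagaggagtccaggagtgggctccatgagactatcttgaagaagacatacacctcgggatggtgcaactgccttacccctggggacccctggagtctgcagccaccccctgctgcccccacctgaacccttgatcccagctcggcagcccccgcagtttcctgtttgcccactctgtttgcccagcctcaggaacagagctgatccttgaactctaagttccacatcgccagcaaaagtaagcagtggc
Apoa5: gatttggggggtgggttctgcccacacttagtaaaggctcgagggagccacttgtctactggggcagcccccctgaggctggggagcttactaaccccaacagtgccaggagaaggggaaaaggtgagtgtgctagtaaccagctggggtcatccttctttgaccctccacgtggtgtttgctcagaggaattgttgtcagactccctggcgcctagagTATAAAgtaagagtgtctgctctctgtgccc
Mttp: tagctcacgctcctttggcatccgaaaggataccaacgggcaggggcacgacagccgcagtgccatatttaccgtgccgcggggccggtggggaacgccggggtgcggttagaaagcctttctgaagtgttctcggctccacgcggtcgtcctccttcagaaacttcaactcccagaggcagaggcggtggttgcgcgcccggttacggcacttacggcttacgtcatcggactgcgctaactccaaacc
RefSeq sequences were at hand for 8 of the 10 genes, and Apoc3 and Apof are named only. The motifs searched on both strands were TATAAA (a core promoter element), CAAAGTCCA (HNF4A), AGGTCA (nuclear receptor element), direct repeats of that element with 1 or 4 bases between the copies (DR1 and DR4, each containing it) and the HNF1 palindrome. TATAAA was found in Apoa5, beginning 31 bases before the start, and in Apob, 60 bases before it, against 13.0% of 27025 promoters of the same length. The start sites used for Apob and Apoe lie inside the gene spans given above, not at their ends. None of the other 5 motifs was found in the 8 promoters, and their shares among all promoters were 0.381% for CAAAGTCCA, 13.8% for AGGTCA, 0.037% for DR1, 0.0111% for DR4 and 0.0074% for HNF1. The looser form CAAAGTNCA, which contains CAAAGTCCA and was added after the sequences had been read, matched Apoa4 alone, 182 bases before the start, against 1.21% of all promoters. These matches describe letters in the window and no binding was measured.

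Levels are log2 values, so a difference of 1 is a 2-fold change. The median of all probe sets split the arrays into 2 sets of 6, for which the labels name no batch. Of the arrays with the higher medians, 2 were from the high-cholesterol and 4 from the normal diet, and the genotypes split alike on each diet. Array 3 of the wild-type normal-diet group resembled the high-cholesterol arrays more than its own group, with its highest correlation over genes, 0.993, to Lats2-CKO high-cholesterol array 3. It stayed in its group as labelled, and each member's diet change over both genotypes is also given without it. Because it was singled out by these same values, leaving it out tends to widen diet differences. Calls made without it are therefore not independent support. Lats2 itself read 4.62, 4.89 and 4.99 in Lats2-CKO livers on the high-cholesterol diet and 4.37, 4.76 and 4.79 on normal diet, against 5.12, 5.71 and 5.97 in wild-type livers on the high-cholesterol diet and 5.15, 5.14 and 5.69 on normal diet. Every mutant array lay below every wild-type one, with a fitted difference of -0.72 ± 0.16 that did not pass the test (limma adjusted p = 0.486, diets averaged). Whether the probes cover the deleted part is not given, so this checks the labels only in part. The hepatocyte markers (7 of 8 measured) had mean levels of 12.42 to 12.61 over the 12 arrays. Of 8 enterocyte markers, 6 had means below 3.04, the 30th percentile of all values (Vil1, Cdx1, Alpi, Sis, Lct and Muc2). The other 2 were Cdx2, at 2.91 to 3.32, and Fabp2, a fatty acid binding protein that the liver also expresses, at 8.50 to 10.13.

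The diet comparison asked how each gene differed between high-cholesterol and normal feeding within each genotype and over both. Apoa4 fell with the high-cholesterol diet, and no other member passed the threshold of 0.05 on the limma p adjusted over all genes. In Lats2-CKO livers 1 of the 10 members was called, where 0.271% of all genes were and 0.144% were called lower. At an unadjusted p below 0.05 there were 3 (Apoa4, Apom and Mttp), against 13.4% of all genes. In wild-type livers none was called, as for all genes (0%), while 2 members (Apoa4 and Mttp) and 10.6% of all genes had an unadjusted p below 0.05. Over both genotypes 1 of 10 was called, against 1.24% of all genes and 0.87% called lower, and the unadjusted count was 3 (the same genes as in Lats2-CKO), against 18% of all genes. Without wild-type normal-diet array 3 the calls were 1 in Lats2-CKO (Apoa4), 1 in wild type (Apof) and 4 over both genotypes, against 2.11%, 2.33% and 7.24% of all genes, or 1.11%, 1.54% and 4.1% called lower.

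Apoa4 encodes apolipoprotein A-IV, which rides on chylomicrons and high-density lipoprotein and enlarges the particles the liver secretes. It read 10.46, 10.12 and 10.29 in Lats2-CKO livers on the high-cholesterol diet, against 12.28, 12.35 and 12.40 on normal diet. In wild-type livers it read 11.64, 10.42 and 10.17 on the high-cholesterol diet, against 11.82, 12.37 and 11.46 on normal diet. The mutant groups lay far apart, while in wild type high-cholesterol array 1 lay above normal-diet array 3. In Lats2-CKO livers the change was -2.05 ± 0.33 on the log2 scale, a 4.15-fold fall (SE, n = 3 each, limma adjusted p = 0.0332). In wild-type livers the fitted change was -1.14 ± 0.33, or 2.20-fold in size, with a limma adjusted p of 0.329. Over both genotypes Apoa4 fell by 1.60 ± 0.23, or 3.02-fold (6 arrays against 6, limma adjusted p = 0.0241). The difference between the genotypes in this response was -0.91 ± 0.47, with a 95% interval of -1.94 to 0.11 and a limma adjusted p of 0.929, so the sizes in the 2 genotypes were not told apart.

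**Figure D1:**
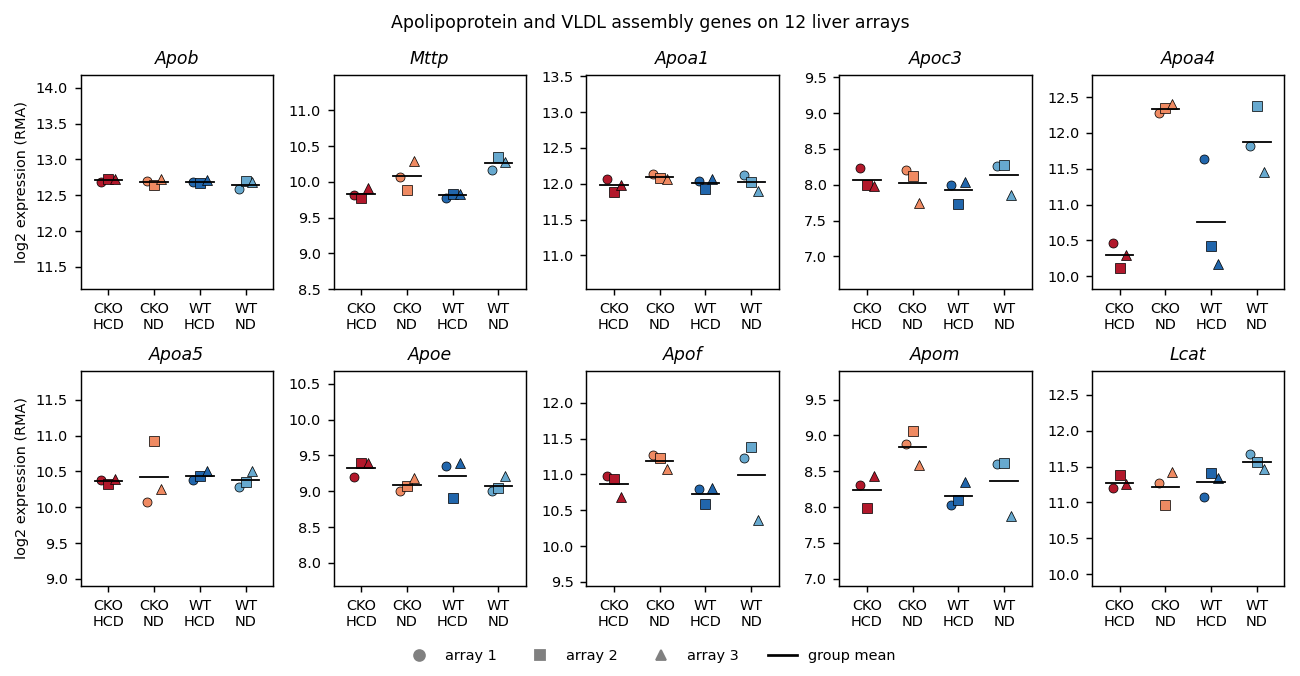
Log2 expression (RMA, y axis, 3 log2 units high in every panel) of the 10 genes on the 12 arrays by group (x axis: CKO, Lats2-CKO; WT, wild type; HCD, high-cholesterol diet; ND, normal diet). Points are single arrays with a shape per array number and bars are group means; Apoa4 spans 10.12 to 12.40, while Apob stays between 12.59 and 12.73.

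The size of the Apoa4 change in Lats2-CKO livers moved little between settings, while its adjusted p lay close to the threshold. When any of the 6 Lats2-CKO arrays was left out, the change in these livers was -2.14 to -1.97 and the limma adjusted p 0.0619 to 0.118. It was 0.0537 without wild-type high-cholesterol array 2, which enters only through the shared spread. Over both genotypes the call was lost without wild-type normal-diet array 1 or 2, wild-type high-cholesterol array 2, Lats2-CKO normal-diet array 3, or Lats2-CKO high-cholesterol array 1 or 3, at limma adjusted p of 0.0567 to 0.0704. Without wild-type normal-diet array 3 the change over both genotypes was -1.70 ± 0.24 (limma adjusted p = 0.00342) and that in wild type -1.35 ± 0.36 (limma adjusted p = 0.0817). A further alternative, chosen after seeing the values, left out that array and wild-type high-cholesterol array 1. These held the lowest normal-diet and the highest high-cholesterol Apoa4 value in wild type, 11.46 and 11.64. The fitted change in wild type was then -1.80. Its limma adjusted p of 0.00456 follows in part from that choice and is no support. By array set, the change in Lats2-CKO livers was -1.86 where medians were higher and -2.20 where they were lower, and a block for the sets gave -1.88 (limma adjusted p = 0.0448). The same values in wild type were -0.46, -1.16 and -0.96. Each of these within-set values has a lone array on 1 side.

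The neighbours of Apoa4 on chromosome 9 showed far smaller fitted changes. Apoa1, the main protein of high-density lipoprotein, read 12.06, 11.89 and 11.98 in Lats2-CKO livers on the high-cholesterol diet, against 12.13, 12.08 and 12.06 on normal diet, and 12.04, 11.93 and 12.06 in wild-type livers on the high-cholesterol diet, against 12.12, 12.03 and 11.90 on normal diet. Its change over both genotypes was -0.06 ± 0.06 (95% interval -0.20 to 0.08). Apoc3, whose product slows the lipolysis and uptake of triglyceride-rich particles, had a change of -0.08 ± 0.11 (-0.32 to 0.16) over both genotypes, with group means of 8.07 ± 0.14 in Lats2-CKO livers on the high-cholesterol diet and 8.02 ± 0.24 on normal diet, and 7.92 ± 0.17 in wild-type livers on the high-cholesterol diet and 8.14 ± 0.24 on normal diet (SD, n = 3 each). Apoa5, which promotes lipolysis by lipoprotein lipase, had a change of 0.00 ± 0.12 (-0.27 to 0.28), and its widest spread was in Lats2-CKO livers on normal diet, at 10.08, 10.93 and 10.26, while its other 9 arrays read 10.28 to 10.50. The level of Apoa4 minus the mean of these 3 genes on the same array was 0.15 ± 0.09 in Lats2-CKO livers on the high-cholesterol diet and 2.16 ± 0.21 on normal diet, and 0.62 ± 0.79 in wild-type livers on the high-cholesterol diet and 1.71 ± 0.40 on normal diet (SD, n = 3 each). High-cholesterol minus normal diet, this difference was -1.55 over both genotypes. It was chosen after the values were seen and is given as a description, with no test. The changes over both genotypes without wild-type normal-diet array 3 were -0.09 ± 0.06 for Apoa1, -0.15 ± 0.10 for Apoc3 and 0.03 ± 0.14 for Apoa5 (limma adjusted p = 0.445, 0.428 and 0.917). In wild type Apoc3 had -0.35 ± 0.15 without that array, against -0.21 ± 0.16 with it (limma adjusted p = 0.281 and 0.674).

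The particle-assembly genes Apob and Mttp differed in their values. Apob encodes the structural protein that stays with the particle from secretion to uptake. It read 12.68, 12.72 and 12.73 in Lats2-CKO livers on the high-cholesterol diet, against 12.70, 12.65 and 12.73 on normal diet, and 12.68, 12.67 and 12.71 in wild-type livers on the high-cholesterol diet, against 12.59, 12.70 and 12.68 on normal diet. The groups overlapped in both genotypes, and the change over both was 0.03 ± 0.05 (95% interval -0.09 to 0.14), and 0.03 ± 0.06 without wild-type normal-diet array 3. Its mean lay above that of 99.9% of genes, and whether the signal was saturated could not be looked at without scanner files.

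Mttp read 9.81, 9.77 and 9.92 in Lats2-CKO livers on the high-cholesterol diet, against 10.07, 9.89 and 10.29 on normal diet. In wild-type livers it read 9.78, 9.83 and 9.83 on the high-cholesterol diet, against 10.16, 10.34 and 10.27 on normal diet. The wild-type groups did not overlap, and the mutant groups overlapped by Lats2-CKO normal-diet array 2 and high-cholesterol array 3. The fitted change was -0.25 ± 0.11 in Lats2-CKO and -0.44 ± 0.11 in wild type (limma adjusted p = 0.335 and 0.307). Over both genotypes it was -0.35 ± 0.08, just outside the threshold at a limma adjusted p of 0.0534, and 3 of 22 alternatives called it. Wild-type normal-diet array 3, at 10.27, lay with its own group for Mttp, and the change without it was -0.34 ± 0.08 (limma adjusted p = 0.0368). By array set, the change over both genotypes was -0.32 where medians were higher and -0.44 where they were lower, and the block gave -0.38 (limma adjusted p = 0.0716).

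**Figure D2:**
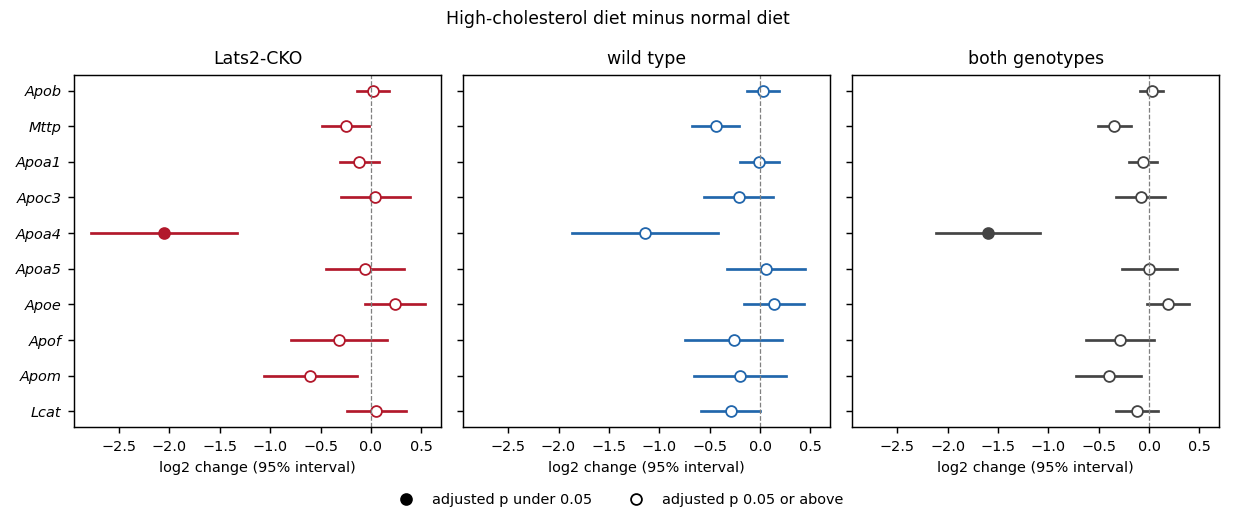
Log2 change of each gene, high-cholesterol minus normal diet, in Lats2-CKO livers, in wild-type livers and over both (x axis), with 95% intervals from limma; filled points have an adjusted p below 0.05. Apoa4 is filled at -2.05 in Lats2-CKO and -1.60 over both genotypes, and all other points are open.

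Apof and Apom had their lowest reading of all 12 arrays on wild-type normal-diet array 3. Apof encodes a protein known as an inhibitor of lipid transfer between lipoproteins, a role that was not measured in these mice. It read 10.98, 10.94 and 10.69 in Lats2-CKO livers on the high-cholesterol diet, against 11.27, 11.23 and 11.07 on normal diet, and 10.80, 10.59 and 10.81 in wild-type livers on the high-cholesterol diet, against 11.23, 11.38 and 10.37 on normal diet. Apom, the carrier of sphingosine-1-phosphate on high-density lipoprotein, read 8.31, 7.98 and 8.43 in Lats2-CKO livers on the high-cholesterol diet, against 8.88, 9.06 and 8.59 on normal diet, and 8.03, 8.10 and 8.35 in wild-type livers on the high-cholesterol diet, against 8.60, 8.61 and 7.87 on normal diet. The mutant groups did not overlap for either gene, and in wild type array 3 alone brought the groups together.

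With all arrays, the change over both genotypes was -0.29 ± 0.15 for Apof and -0.40 ± 0.15 for Apom (limma adjusted p = 0.356 and 0.189). Without wild-type normal-diet array 3, the fitted change over both genotypes was -0.45 ± 0.08 for Apof and -0.52 ± 0.12 for Apom (limma adjusted p = 0.0128 and 0.0244). For Apof in wild type it was -0.57 ± 0.13 (limma adjusted p = 0.0477). That array was singled out for its likeness to the other diet, so the choice favoured these calls. Leaving it out gave 4 of 10 members called over both genotypes, Apoa4, Apof, Apom and Mttp. All were lower, where 4.1% of all genes were called lower. With the array sets as a block and all arrays kept, the values were -0.17 for Apof and -0.32 for Apom. Within the higher set they were -0.38 and -0.62, and within the lower set, where array 3 is the lone wild-type normal-diet array, 0.04 and -0.01.

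Apoe, the ligand through which remnant particles are taken up, read 9.20, 9.39 and 9.40 in Lats2-CKO livers on the high-cholesterol diet, against 9.01, 9.07 and 9.19 on normal diet, and 9.36, 8.90 and 9.40 in wild-type livers on the high-cholesterol diet, against 9.00, 9.04 and 9.21 on normal diet. The mutant groups did not overlap, while in wild type high-cholesterol array 2 gave the lowest value of all 12. The change over both genotypes was 0.19 ± 0.10 (limma adjusted p = 0.334), the largest positive fitted value among the 10, and 0.22 ± 0.10 without wild-type normal-diet array 3 (limma adjusted p = 0.235). Macrophages also make Apoe. The 12 macrophage and Kupffer markers, all measured and none with a mean below 3.04, had mean levels of 6.27 to 6.98 in Lats2-CKO livers on the high-cholesterol diet and 5.80 to 5.99 on normal diet, and of 6.66 to 8.01 in wild-type livers on the high-cholesterol diet and 6.25 to 6.65 on normal diet. With the diet over both genotypes, 11 of these 12 had higher fitted values (median of the list 0.97). The 1 lower was Cd163, at -0.87 ± 0.34 (limma adjusted p = 0.209). Clec4f and Cd5l were called higher (0.53 ± 0.09 and 1.78 ± 0.32, limma adjusted p = 0.0327 and 0.038). The part of these markers in the Apoe values was not tested. In bulk liver, a change in the number of cells of a type and a change in RNA per cell cannot be told apart.

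Lcat, which esterifies cholesterol on high-density lipoprotein, read 11.20, 11.38 and 11.25 in Lats2-CKO livers on the high-cholesterol diet, against 11.27, 10.96 and 11.43 on normal diet, and 11.07, 11.41 and 11.34 in wild-type livers on the high-cholesterol diet, against 11.67, 11.57 and 11.46 on normal diet. In wild type the groups did not overlap, and the change was -0.29 ± 0.13 (limma adjusted p = 0.477). In Lats2-CKO it was 0.05 ± 0.13, and the difference between the genotypes was 0.35 ± 0.19 (limma adjusted p = 0.929). The change without wild-type normal-diet array 3 was -0.35 ± 0.15 in wild type and -0.15 ± 0.10 over both genotypes (limma adjusted p = 0.276 and 0.436), where it was -0.12 ± 0.09 with all arrays.

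Counted without regard to size, 4 members in Lats2-CKO livers had every high-cholesterol array below every normal-diet array (Apoa4, Apof, Apom and, by less than the printed decimals, Apoa1), against 10.5% of all genes. The 1 member with all of them above was Apoe, against 8.98% of all genes. Its margin was narrow, with the lowest high-cholesterol value at 9.20 and the highest normal-diet value at 9.19. In wild type 2 members, Mttp and Lcat, were entirely lower, against 8.81%, and none was entirely higher, against 4.97%. Over both genotypes none of the 10 separated, against 0.974% lower and 0.379% higher. The median change of the 10 genes was -0.09 in Lats2-CKO, -0.21 in wild type and -0.10 over both genotypes, where all genes had -0.02 in each.

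The genotype comparison asked whether loss of Lats2 went with a different level of these genes on either diet. No member passed the threshold on the high-cholesterol diet, where 0% of all genes did, or on normal diet, where 0.0135% did. Over both diets none passed either, against 0.00451% of all genes, and none had an unadjusted p below 0.05, against 5.97%. At an unadjusted p below 0.05, none of the 10 stood out on the high-cholesterol diet, against 2.93% of all genes, and 2 did on normal diet, against 8.99%. These were Apom, at 0.48 ± 0.21, and Lcat, at -0.35 ± 0.13, Lats2-CKO minus wild type (limma adjusted p = 0.528 and 0.453). The Apom groups overlapped only by Lats2-CKO array 3, at 8.59, which lay just below wild-type arrays 1 and 2. Without wild-type normal-diet array 3 the Apom value was 0.24 ± 0.17. Lcat was the 1 member with all mutant arrays below all wild-type arrays on this diet, against 7.36% of all genes, and its value was -0.40 ± 0.15 without that array. No member lay entirely higher there, against 5.96%. On the high-cholesterol diet none separated either way, against 3.37% lower and 4.07% higher, and over both diets none did, against 0.126% and 0.104%.

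**Figure D3:**
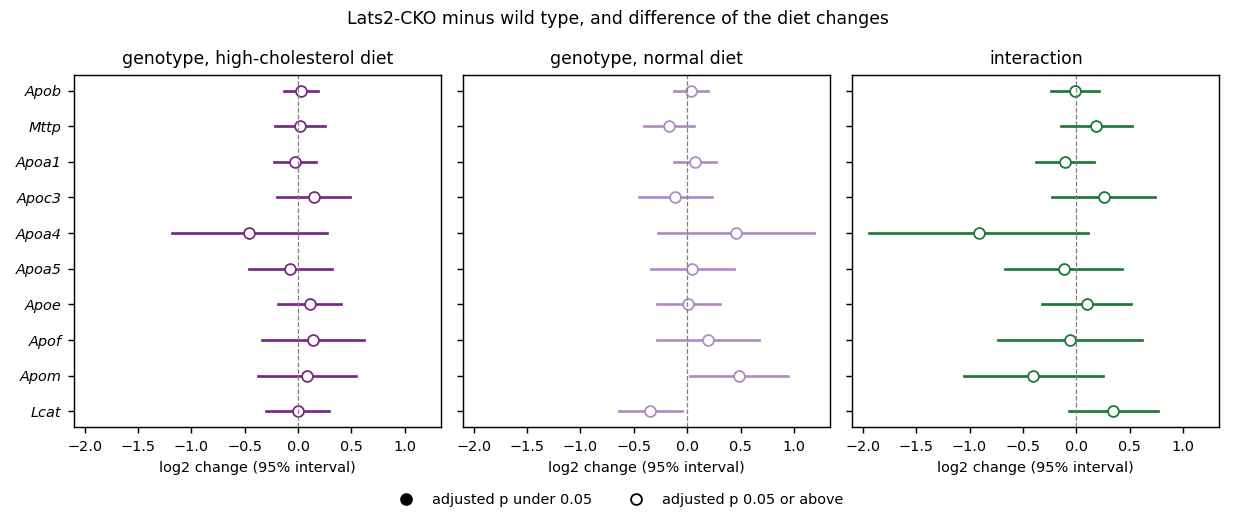
Log2 difference of each gene, Lats2-CKO minus wild type, on the high-cholesterol diet and on normal diet, and the interaction (diet change in Lats2-CKO minus diet change in wild type), with 95% intervals from limma. All points are open, meaning an adjusted p of 0.05 or above; the Apoa4 interval reaches from -1.94 to 0.11 for the interaction.

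For Apoa4 the genotype difference was -0.46 ± 0.33 on the high-cholesterol diet and 0.46 ± 0.33 on normal diet (limma adjusted p = 1 and 0.764). Its group means were 10.29 ± 0.17 in Lats2-CKO and 10.75 ± 0.79 in wild type on the high-cholesterol diet, and 12.34 ± 0.06 in Lats2-CKO and 11.88 ± 0.46 in wild type on normal diet (SD, n = 3 each). From the highest, the order was mutant and then wild type on normal diet, followed by wild type and then mutant on the high-cholesterol diet, and no neighbours in it passed the test. On the high-cholesterol diet the genotype difference was -1.19 in the higher array set, which has 1 array of each genotype there, and -0.09 in the lower set. On normal diet it was 0.22 and, from 1 array of each, 0.94. For Apob the intervals were narrow, -0.13 to 0.19 on the high-cholesterol diet and -0.12 to 0.20 on normal diet, and for Mttp they ran from -0.22 to 0.25 and from -0.41 to 0.06. No member passed for the interaction of genotype and diet, where 0.00451% of all genes did, and none had an unadjusted p below 0.05 there, against 5.62%. In the mutants, 11 of the 12 macrophage markers had lower fitted values over both diets (median -0.83), as had all 5 endothelial markers (median -0.46). None of these passed the threshold, and their part in the genotype values was not tested.

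Other genes of lipoprotein metabolism were read from 5 lists, and with all arrays none of their genes passed the threshold in any diet or genotype comparison. Without wild-type normal-diet array 3, 12 of the 60 measured genes passed over both genotypes, where 7.24% of all genes did: Apon, P4hb, Sec24c, Angptl8 and Srebf2 lower, and Mia2, Tor1aip1, Lpl, Pltp, Foxo1, Srebf1 and Ppargc1a higher. The values that follow are from all arrays. In each list the pair with the smallest unadjusted p for diet over both genotypes is given. Among 18 measured genes of particle secretion, the median diet change over both genotypes was -0.07. There P4hb, which encodes the disulfide isomerase that forms the second subunit of the transfer protein, read 10.66, 11.01 and 11.08 in Lats2-CKO livers on the high-cholesterol diet, against 11.33, 11.87 and 11.63 on normal diet, and 10.72, 10.97 and 11.03 in wild-type livers on the high-cholesterol diet, against 11.31, 11.47 and 11.00 on normal diet. The fitted change was -0.52 ± 0.12 for P4hb (limma adjusted p = 0.0638), beside -0.35 ± 0.08 for Mttp, and neither passed the threshold. Whether these genes changed together as parts of the transfer protein was not tested. Lower values were also seen in a gene outside these lists, Hspa5. It is 1 example named outside the rule for the lists and is given without a test. Its means were 8.87 on the high-cholesterol and 10.11 on normal diet in Lats2-CKO livers. In wild-type livers its means were 8.83 and 9.99, with normal-diet array 3 at 8.98. Ces1d, a carboxylesterase that mobilises stored triglyceride for secretion, had 0.63 ± 0.18 (limma adjusted p = 0.114), but it belongs to a family of similar genes whose signals may mix.

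Among 9 measured other apolipoproteins the median was -0.03, with Apon at -0.65 ± 0.20 and Saa4 at -0.24 ± 0.09 (limma adjusted p = 0.127 and 0.201). Apon read 9.32 on wild-type normal-diet array 3, against 10.41 and 10.51 on arrays 1 and 2 of that group, the same side as Apof and Apom. Among 11 measured genes of lipases and plasma remodelling the median was 0.01. Lpl, the lipase of triglyceride-rich particles, had 2.08 ± 0.47 and Pltp, which transfers phospholipid between particles, 0.90 ± 0.20 (limma adjusted p = 0.0586 and 0.0575). For Lpl the same array 3 read 8.74, against 6.07 and 6.44 on arrays 1 and 2.

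Among 7 measured lipoprotein receptors and their regulators the median was 0.02, with the remnant receptor Lrp1 at 0.24 ± 0.08 and Mylip, which targets the low-density lipoprotein receptor for degradation, at 0.60 ± 0.22 (limma adjusted p = 0.144 and 0.19). Every high-cholesterol array lay above every normal-diet array for Lrp1, as for 0.379% of all genes. The margin was narrow, with the lowest high-cholesterol value at 10.16 and the highest normal-diet value at 10.15. Among 15 measured transcription factors known to act on the 10 genes the median was 0.13. The sterol regulators had opposite signs, Srebf2 at -1.07 ± 0.25 and Srebf1 at 1.31 ± 0.33 (limma adjusted p = 0.0658 and 0.0795). Beyond that pair, Hnf4a, a factor on which many apolipoprotein genes depend, had 0.08 ± 0.09 and Creb3l3, known to raise Apoa4 in mouse liver, had -0.24 ± 0.11 (limma adjusted p = 0.68 and 0.286). Both were named after their values were seen and fall outside the rule for the lists. Other factors outside that pair, such as Foxo1, had a smaller unadjusted p. The part of any factor in the Apoa4 values was not tested.

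**Figure D4:**
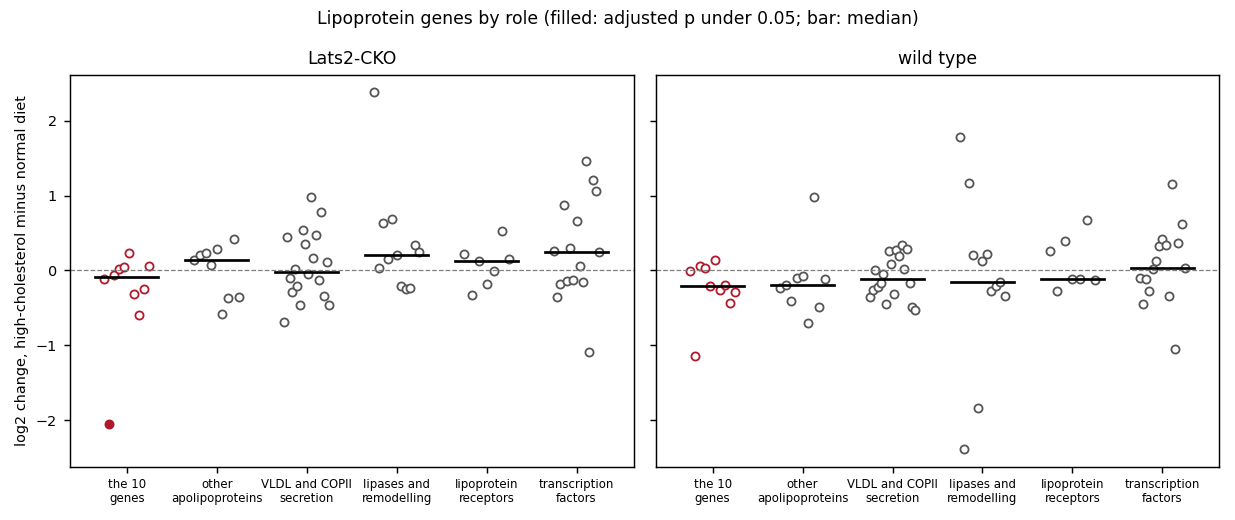
Log2 change, high-cholesterol minus normal diet (y axis), of the 10 genes and of 5 lists of related genes (x axis) in Lats2-CKO and wild-type livers; each point is a gene, bars are list medians, and filled points have an adjusted p below 0.05. The filled point is Apoa4 in Lats2-CKO at -2.05, and no list gene is filled.

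Apoa4 had the widest range of the 10 genes, 2.28 over the 12 arrays, against 0.14 for Apob, 0.24 for Apoa1 and 0.50 to 1.19 for the other 7. The genes whose pattern over the 12 arrays was most like that of Apoa4, by Pearson's r among 15605 genes with a mean of at least 3.04, were Gfm1 (0.927), Fh1 (0.922), Psmd1 (0.921), Gm17767 (0.920) and Oat (0.917), with Spearman's rho of 0.909, 0.790, 0.895, 0.818 and 0.874. These are descriptions over arrays that share the diet groups, and no test is attached. Oat, the ornithine aminotransferase, came closest to Apoa4 in size, at -1.64 ± 0.32 with the diet over both genotypes, beside -1.60 ± 0.23 for Apoa4. Gm17767 read between 2.99 and 3.52, near the dim end of the scale.

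**Figure D5:**
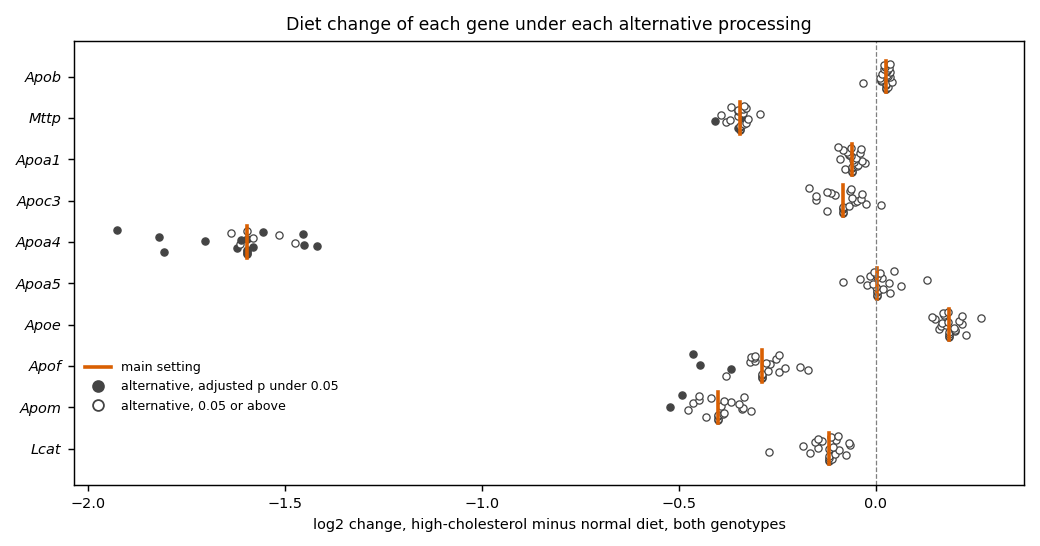
Log2 change with diet over both genotypes (x axis) of each gene under the main setting (orange bar) and 22 alternatives each (points; filled, adjusted p below 0.05). Apoa4 stays between -1.93 and -1.42, and Mttp, Apof and Apom are filled under 2 or 3 of the alternatives.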

How the data were processed

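The authors deposited log2 expression per probe set, made with RMA in Partek 6.6 according to the submitters' processing notes (per the labels, 250 ng of total RNA per sample). RMA settings, genome build and filters are not given in the sources used here. The log2 scale was taken from the values (1.94 to 14.2). No scanner files were used, so saturation could not be checked, and precision is limited by the 12 arrays.

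Of 41345 probe sets, 23521 had 1 gene symbol, 1814 several and 16010 none. For 23328 of those with 1 symbol, the symbol was looked up through the gene identifier (RefSeq, GRCm38.p6), whether or not it differed. The probe set with the highest mean stood for each of 22180 genes. One limma 3.58.1 model (R 4.3.3) held 4 group means, with Benjamini-Hochberg adjustment across the 22180 genes and a threshold of 0.05. Errors are SE for changes and SD for levels. The fit was tested on simulated data. Members, lists and tests were chosen with earlier results of these data known. All members are named, and 9 of 106 list genes are not analysed here. List genes follow the rule stated beside them, except where the text says that they fall outside it. Alternatives were fits on the compared groups, with a block for replicate number or array set, with a trended robust prior or array weights, without dim genes, on probe set means, after quantile normalisation or median centring, and without each array.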

Additional observations from a re-analysis of the deposited data

How the results depend on the processing

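Of the 70 changes (10 genes in 7 comparisons), 2 passed the threshold, both of Apoa4, and neither changed sign under any alternative tried. Among the others, 79 of 1580 alternative values, counted over all 70 changes, had the opposite sign. With the diet over both genotypes, 274 of all 22180 genes passed in the main fit. With array weights 2 members passed (Apoa4 and Mttp), and 1371 of all genes. With the block for array sets and wild-type normal-diet array 3 left out, 3 members passed (Apoa4, Apof and Mttp), and 1229 of all genes. Without that array and wild-type high-cholesterol array 1, 3 members passed (Apoa4, Apof and Apom), and 1646 of all genes. The last alternative was chosen after seeing the data and also gave 1 in wild type (Apoa4). It left out the wild-type arrays between which the Apoa4 groups overlapped, so its Apoa4 calls are no support. The cause of these shifts was not tested. Leaving out 1 array at a time gave 0 to 1 members in Lats2-CKO, 0 to 1 in wild type and 0 to 4 over both genotypes. Of all 22180 genes, the same fits called 5 to 468, 0 to 516 and 6 to 1605. No member passed for genotype or the interaction under any alternative run. The low number of arrays limits what could be detected.

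Counts over all genes moved more. In Lats2-CKO, 60 genes were called, against 265 with only those groups fitted, 98 with the trended robust prior and 274 with array weights. The count was 104 without dim genes, 33 with the block for array sets and 573 with that block and array 3 left out. It was 540 without wild-type normal-diet array 3 and wild-type high-cholesterol array 1, a pair chosen after seeing the values. Without 1 array it was 5 to 468. Over both genotypes the count was 274, against 1371 with array weights, 421 without dim genes and 43 with the block. It was 1229 with the block and array 3 left out, and 1646 without that pair of arrays. Without wild-type normal-diet array 3 alone it was 1605, and without any other single array 6 to 301. In wild type the count was 0, against 13 with array weights and 374 with the block and array 3 left out. It was 396 without that pair of arrays and 0 to 516 without 1 array. Genotype counts were 0 on the high-cholesterol diet (0 to 22), 3 on normal diet (1 to 17) and 1 over both diets (1 to 8), and 1 for the interaction (1 to 3).

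Nothing says that equal replicate numbers share an animal or day. Of 18 same-numbered pairs, 7 had correlated deviations over 0.1 (range 0.002 to 0.176), and deviations correlated best with the same number in 25 of 36 cases. Every array numbered 1 was in the set with higher medians and every array numbered 3 in the lower set. For numbers 1 and 3, likeness by number therefore cannot be told apart from likeness by array set. Arrays numbered 2 were in the higher set on normal diet and in the lower set on the high-cholesterol diet. Their pairs across the diets, and so across the sets, had correlations of 0.002 to 0.061. The pairs within a diet had 0.106 on the high-cholesterol and 0.084 on normal diet. Whether number or set goes with the likeness was not tested. With the replicate block the members called were 1 in Lats2-CKO, 0 in wild type and 1 over both genotypes, Apoa4 having limma adjusted p of 0.0481 and 0.0358, and 58 and 311 genes were called in all.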
